A study of Mus musculus with 278 samples.

Results

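Matrix metalloproteinases, their tissue inhibitors (TIMPs) and the sheddase Adam10 were examined in single cells from cultures described as mouse keratinocytes. The 10 genes were chosen by name: Mmp2, Mmp3, Mmp9, Mmp10, Mmp13, Mmp14, Timp1, Timp2, Timp3 and Adam10. Of these, 8 were among the 14145 genes of the expression table, and Mmp13 and Timp1 were not analysed here. All 8 passed the filter on low values, as did 12355 genes in total. Levels are given as TPM, read numbers corrected for transcript length and scaled to a sum of 1000000 in every cell, so levels of different genes can be compared on the TPM scale.

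The cells were described as keratinocytes from adult mouse back skin, grown as a 9:1 mixture of wild-type cells and cells carrying K14ΔNβ-cateninER. In this transgene the keratin 14 promoter drives a stabilised beta-catenin that becomes active with 4-hydroxy-tamoxifen (4OHT). The mixture was exposed for 24 h to 200 nM 4OHT (treated) or to DMSO alone (untreated), so both cultures held transgenic cells. The study asked what activated neighbours do to the wild-type cells beside them, and removed transgenic cells found by reads of the transgene. Transgenic and wild-type cells were not told apart here, so directly activated cells may be among those compared. Library names divided the cells into an AG and a GHA501A series, and 270 cells formed 4 sets: 66 AG untreated, 64 AG treated, 71 GHA501A untreated and 69 GHA501A treated. The labels name no cultures or capture runs, so the cells of a set may share both. Sets, not cells, were therefore taken as replicates, and nothing says that the 2 series came from different animals. The p-values below compare means of these sets, and a difference between sets may be technical. In the main fits the error of a gene is taken almost wholly from genes of similar level, not from the spread of its own sets.

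Metalloproteinases of this family are zinc enzymes made as inactive precursors that cut extracellular matrix and cell-surface proteins. Mmp2 and Mmp9 are the gelatinases, Mmp3 and Mmp10 are the stromelysins, and Mmp14 is anchored in the membrane, where together with Timp2 it can activate the Mmp2 precursor. TIMPs block the active site of these enzymes, Timp3 is bound to the matrix and also inhibits several ADAM proteases, and Adam10 is a membrane sheddase that cuts Notch receptors and E-cadherin. In skin this system is best known from wound repair, where keratinocytes and fibroblasts make different members of it.

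The stromelysin genes both lie on chromosome 9, with Mmp3 at chr9:7445822-7455975 and Mmp10 at chr9:7502352-7510240, both on the plus strand of GRCm38 and 46376 bases apart. The 250 bases before their RefSeq starts (GRCm38.p6, plus strand) are shown because, of the 8 genes analysed, these were the ones whose window held an AP-1 motif, the binding sequence of Fos and Jun factors. Capitals mark the motif, which was 46 bases before the start in Mmp3 and 63 in Mmp10.
Mmp3 (chr9:7445572-7445821): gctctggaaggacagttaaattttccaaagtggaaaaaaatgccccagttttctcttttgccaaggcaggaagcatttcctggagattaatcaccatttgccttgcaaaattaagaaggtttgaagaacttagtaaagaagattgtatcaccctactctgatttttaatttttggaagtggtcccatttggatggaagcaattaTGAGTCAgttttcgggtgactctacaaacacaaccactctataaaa
Mmp10 (chr9:7502092-7502341): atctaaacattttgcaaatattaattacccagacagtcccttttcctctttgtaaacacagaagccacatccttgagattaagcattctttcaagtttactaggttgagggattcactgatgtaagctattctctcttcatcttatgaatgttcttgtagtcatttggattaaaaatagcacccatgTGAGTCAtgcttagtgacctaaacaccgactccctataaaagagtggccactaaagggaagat
The letters searched were TGANTCA, which read the same on both strands, and 6.75% of 32851 windows of this length held them. The window of Mmp13, whose level was not analysed here, held a match 35 bases before its start. A window was at hand for 6 of the 8 genes, and those of Mmp14, Timp2, Timp3 and Adam10 held no match. A match describes the letters in the window and was not tested as a site.

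The 2 series differed far beyond these genes, and that bears on each difference between them given below. Cells held a median of 6191 (AG untreated), 6381 (AG treated), 6392 (GHA501A untreated) and 6008 (GHA501A treated) genes above 1 TPM. Although every cell was labelled a keratinocyte, 84.3% of the 140 GHA501A cells carried the fibroblast rather than the keratinocyte markers, 19 carried the keratinocyte markers and 3 were mixed. In AG, 98.5% of 130 cells carried the keratinocyte markers and 2 were mixed. These classes set the mean log2 level of 14 keratinocyte genes against that of 11 fibroblast genes with a margin of 1, and 2 of the 270 cells lay within 0.5 of a margin. In the fibroblast-marker cells the summed TPM of the keratinocyte genes ran from 0 to 4041, and in AG cells from 1544 to 95328. The fibroblast genes summed to 970 to 30077 and to 3.57 to 3146 TPM, so both pairs of ranges overlapped. In at least 50% of fibroblast-marker cells, 5 of the 14 keratinocyte genes exceeded 1 TPM. In the GHA501A keratinocyte-marker cells 6 of the 11 fibroblast genes did so. Itgb4, a keratinocyte gene of the list, was at 0 in every AG cell. Lists for other cell types were summed too, and their part in the results was not tested. Immune genes (2 of 8 in the table) reached 2414 TPM in an AG and 54196 TPM in a GHA501A cell, pericyte or muscle genes (5 of 7) 6197 and 5560 TPM, melanocyte genes (3 of 6) 657 and 326 TPM, and endothelial genes (3 of 6) 28.2 and 88.7 TPM. Some genes that keratinocytes generally use were listed at 0 in a whole series. Ctnnb1 (beta-catenin), chosen after its values were seen, exceeded 1 TPM in 0% of AG and 99.3% of GHA501A cells, while Actb did so in 100% of both. In all, 479 genes were detected in under 5% of AG cells and at least 50% of GHA501A cells, and 110 the other way round. Differences between the series therefore cannot be told apart from how each was prepared, sequenced and counted.

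Low values were also spread differently, since 6.72% of the values above 0 lay under 1 TPM in AG and 13.6% in GHA501A. The depth of a cell is unknown, because the table gives no counts. A value of 0 is therefore reported as a listing at 0 and not as absence of the transcript.

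Adam10 and Timp2 were the most evenly detected of the 8 genes. Adam10 (chr9:70678997-70780229, plus strand) exceeded 1 TPM in all 270 cells. Its lowest, median and highest levels were 34.4, 369 and 16898 TPM in AG untreated cells and 14.03, 225 and 2163 TPM in AG treated cells. In GHA501A they were 8.25, 252 and 811 TPM without and 6.404, 208 and 819 TPM with 4OHT. The 4 sets overlapped almost throughout, and the top AG untreated cell stood alone, since the next highest was at 3689 TPM. Timp2 (chr11:118301069-118355740, minus strand) was detected in 96.9% of 130 AG cells and in all 140 GHA501A cells. Its lowest, median and highest levels were 0, 231 and 2081 TPM in AG untreated and 0, 179.4 and 1251 TPM in AG treated cells. In GHA501A they were 9.04, 132.9 and 821 TPM without and 2.88, 162.8 and 1155 TPM with 4OHT, again with the sets overlapping.

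Mmp14 (chr14:54431612-54445364, plus strand) was the one Mmp gene of the list found in most cells. AG untreated cells ran from 0 through a median of 70.4 to 1393 TPM, and AG treated cells from 0 through 48.6 to 368 TPM. GHA501A untreated cells ran from 0 through 21.6 to 370 TPM, and GHA501A treated cells from 0 through 13.4 to 855 TPM. The medians of both GHA501A sets lay under the lower quartiles of the AG sets, 37.2 and 26.4 TPM, although the ranges overlapped. Detection was 98.5% of 130 AG cells and 82.1% of 140 GHA501A cells.

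Timp3 (chr10:86300372-86349506, plus strand) had the largest difference of the 8 genes between the series. In AG it ran from 0 through a median of 48.8 to 1369 TPM in untreated cells, and from 1.05 through 48.1 to 1699 TPM in treated cells. In GHA501A the median was 0 in both sets, with highest cells of 195 TPM untreated and 148.6 TPM treated. It exceeded 1 TPM in 96.9% of 130 AG cells but in 28.6% of 140 GHA501A cells, of which a further 22 held a value above 0 and up to 1 TPM. One limit is particular to this gene: its exons share 1733 bases with those of Syn3 on the other strand. The sources used here name no step that kept strand, so reads from those bases cannot be told apart.

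**Figure D1:**
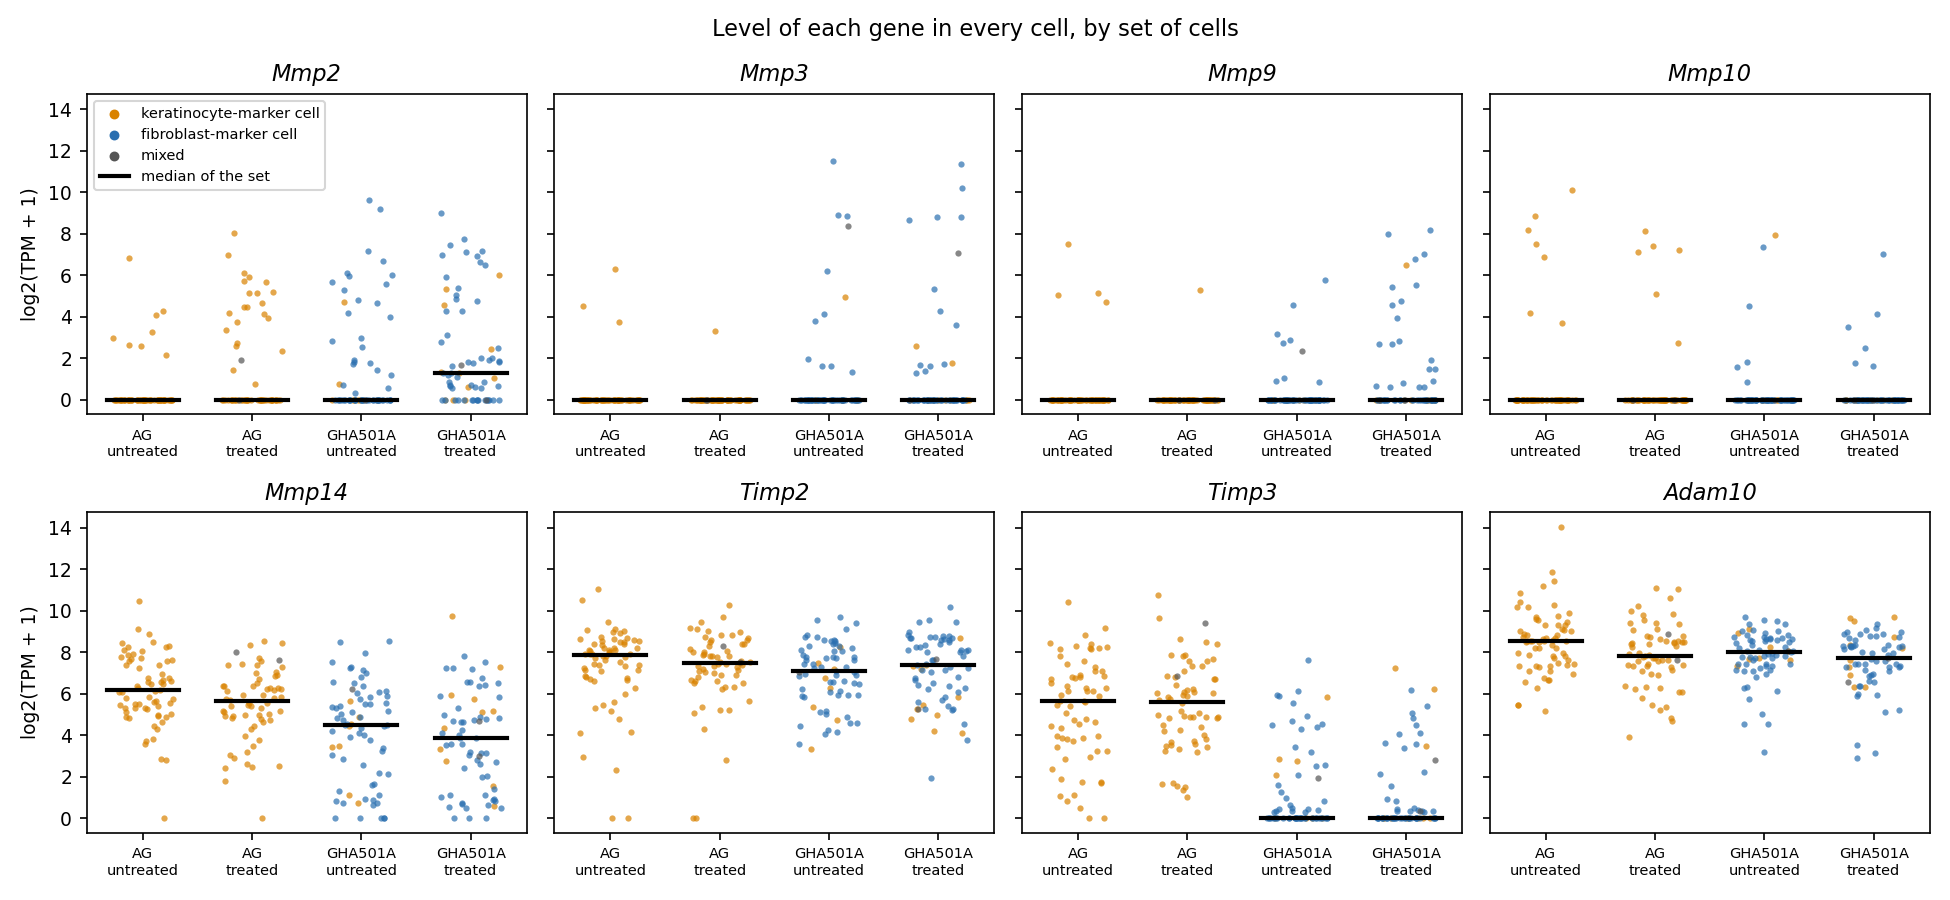
Level of the 8 genes in each of the 270 cells, as log2(TPM + 1), in the 4 sets (AG and GHA501A, untreated and treated). Each point is a cell, coloured by marker class, and the black line is the median of the set. Adam10 and Timp2 filled all 4 sets, Timp3 had a median of 0 in both GHA501A sets, and Mmp3, Mmp9 and Mmp10 were listed at 0 in most cells of every set.

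Mmp2, the gelatinase that Mmp14 activates (chr8:92827291-92853420, plus strand), was present in a minority of cells in 3 of the 4 sets. It exceeded 1 TPM in 12.1% of AG untreated cells (exact 95% interval 5.38 to 22.5%) and in 34.4% of AG treated cells (22.9 to 47.3%). In GHA501A the shares were 33.8% (22.997 to 46.01%) without and 56.5% (44.04 to 68.4%) with 4OHT. The highest cells reached 113.6 and 260 TPM in AG and 782 and 506 TPM in GHA501A, untreated and treated, and the median was 0 in 3 sets and 1.46 TPM in GHA501A treated cells. These intervals are Clopper-Pearson intervals that cover the counting of cells alone. In GHA501A a further 14 cells held an Mmp2 value above 0 and up to 1 TPM, against 1 cell in AG.

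The other gelatinase and the stromelysins were rare, with a median of 0 in every set. Mmp3 was detected in 3 of 66 AG untreated and 1 of 64 AG treated cells, and in 12 of 71 and 16 of 69 GHA501A cells. Its highest cells stood at 78.6 and 9.02 TPM in the AG sets and at 2904 and 2644 TPM in the GHA501A sets. Mmp3 was thus the gene of the 4 rare ones that reached the highest level in a single cell, and it did so in both GHA501A sets.

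Mmp9 (chr2:164940780-164955850, plus strand) was found in 4 of 66 and 1 of 64 AG cells, untreated and treated, with highest levels of 178.7 and 38.1 TPM. In GHA501A it was found in 7 of 71 untreated cells, the highest at 53.5 TPM, and in 16 of 69 treated cells, the highest at 292 TPM. Mmp10 was detected in 7 of 66 and 6 of 64 AG cells and in 5 of 71 and 6 of 69 GHA501A cells. Its highest levels were 1114 and 278 TPM in AG and 245 and 126.7 TPM in GHA501A. The exact intervals of the 4 Mmp10 shares overlapped one another.

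**Figure D2:**
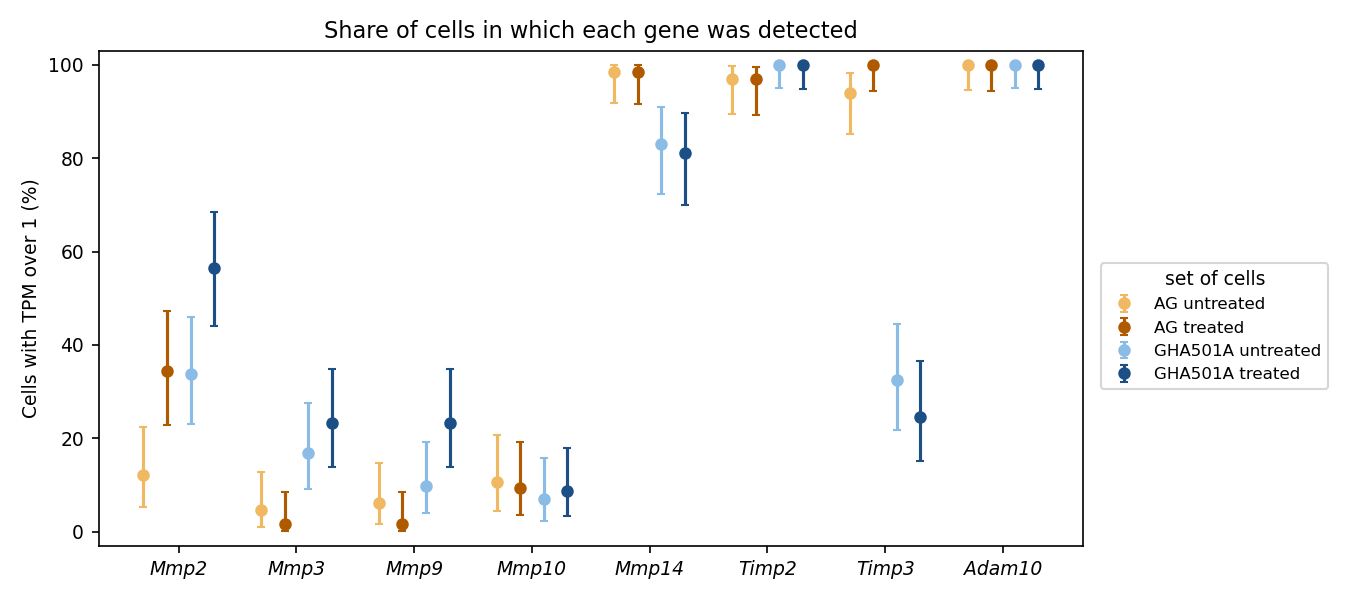
Percentage of cells with TPM over 1 for each gene, in the 4 sets. Points are shares of the 64 to 71 cells of a set and bars are exact 95% binomial intervals, which cover the counting of cells alone. The Mmp2 share was higher in the treated set of each series, from 12.1 to 34.4% in AG and from 33.8 to 56.5% in GHA501A, and Timp3 lay at 93.9% or above in AG and at 32.4% or below in GHA501A.

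Enzymes and inhibitors were also added up within each cell, as TPM of the 5 Mmp genes, without Adam10, and of the 2 TIMPs. The median metalloproteinase sum was 92.7 TPM in AG untreated, 76.97 in AG treated, 44.5 in GHA501A untreated and 39.9 in GHA501A treated cells. The corresponding TIMP sums were 287, 278, 156.8 and 176.96 TPM. The TIMP sum exceeded the metalloproteinase sum in 51 of 66, 59 of 64, 49 of 71 and 52 of 69 cells. A cell with none of the 5 Mmp genes detected was uncommon, with 1 in each AG set and 4 in each GHA501A set. At least 2 of the 5 were detected in 24.2% and 39.1% of AG cells, untreated and treated, and in 46.5% and 63.8% of GHA501A cells. These sums and shares are descriptions and were not tested.

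Treated and untreated cells were compared on the mean of log2(TPM + 1) over the cells of each set, with series as a block. A difference on this scale understates the change of a gene with low values. Genes were called at a limma adjusted p under 0.05 and a difference over 0.5. The number of cells with a transcript and the level within a cell both enter a set mean and cannot be told apart there. Each gene has 1 residual degree of freedom in this fit, so its error is taken almost wholly from genes of similar level. Across all genes 0.0405% were called, 5 of 12355 (0.0324% higher and 0.00809% lower with 4OHT), and 0 of the 8 were among them. Without the adjustment, 534 of the 12355 genes and 1 of the 8 had a p under 0.05. The 5 called genes, named after their values were seen, were Dync2li1, Klk10, Ly6d and Sprr2h, higher with 4OHT, and Mcpt8, lower, and the alternatives called between 0 and 12 genes.

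The member with an unadjusted p under 0.05 was Mmp2. Its set means, untreated and treated, were 0.44 and 1.54 in AG and 1.55 and 2.30 in GHA501A, differences of 1.10 and 0.74. The fitted difference was 0.92 ± 0.27 (SE, 2 sets against 2), with an unadjusted p of 0.000555 and a limma adjusted p of 0.229, which missed the threshold. Over the alternatives the adjusted p ran from 0.188 to 1.00. The share of cells with Mmp2 and the mean log2 level were thus higher with 4OHT in both series, but not called. On the linear scale the mean was 2.68 and 13.7 TPM in AG, untreated and treated, but 29.3 and 29.1 TPM in GHA501A. Among the GHA501A cells with Mmp2 over 1 TPM the median was 24.7 TPM untreated and 7.69 TPM treated.

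Mmp14, Adam10 and Mmp10 had lower means with 4OHT in both series and were not called. For Mmp14 the differences were -0.71 in AG and -0.36 in GHA501A, with a fitted value of -0.54 ± 0.39 (SE) and an adjusted p of 0.999. Within GHA501A the Mmp14 mean was 4.15 untreated and 3.57 treated in fibroblast-marker cells, but 3.53 and 4.68 in the 8 and 11 keratinocyte-marker cells. For Adam10 they were -0.65 and -0.28, with a fitted value of -0.46 ± 0.40. The Mmp10 differences were -0.16 and -0.04. For Mmp3, Mmp9, Timp2 and Timp3 the series moved in opposite directions. The widest gap was that of Mmp9, at -0.26 in AG and 0.79 in GHA501A, and both values lay outside the fitted 0.27 ± 0.14 (SE). For Timp2 the fitted value was 0.08 ± 0.40 and for Timp3 it was -0.03 ± 0.36, so that 95% intervals of about 0.79 and 0.71 to either side remained.

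**Figure D3:**
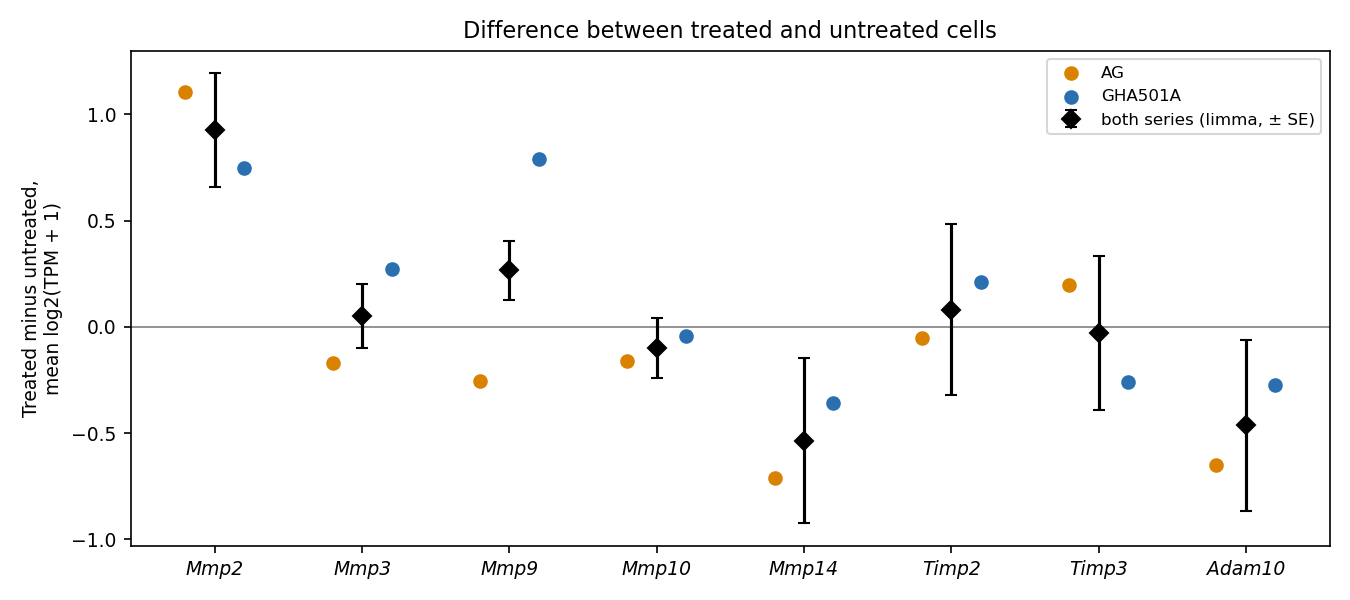
Treated minus untreated difference of mean log2(TPM + 1) for the 8 genes. Coloured points are the AG and GHA501A series and black diamonds the limma difference over both, with bars of ± 1 SE. Mmp2 was higher with 4OHT in both series, at 1.10 and 0.74, and Mmp9 moved in opposite directions, at -0.26 and 0.79, while 0 of the 8 genes were called.

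Between the series, 51% of all genes were called, 23.7% higher and 27.3% lower in GHA501A, with a median difference of -0.11. Of the 8 genes, 5 were called, 3 higher and 2 lower in GHA501A, which is near that background. Timp3 fell by 4.14 (SE 0.36, adjusted p 9.26e-29), with means of 5.26 and 5.46 in the AG sets and 1.35 and 1.09 in the GHA501A sets. Mmp14 fell by 1.90 (SE 0.39, adjusted p 3.55e-06), from 6.19 and 5.48 to 4.11 and 3.75. The 2 sets of each series did not overlap for either gene.

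Mmp2, Mmp3 and Mmp9 were higher in GHA501A. Mmp3 rose by 0.89 ± 0.15 (SE), with means of 0.22 and 0.05 in AG and 0.89 and 1.16 in GHA501A, and an adjusted p of 2.84e-08. Mmp2 rose by 0.93 ± 0.27 (SE, adjusted p 0.00125), but its call was lost when any 1 of the 4 sets was left out. The differences then ran from 0.38 to 1.49. Fits between series that left out a set also dropped the treatment block, so a lost call there cannot be laid to the missing set alone. With all 4 sets and no block the Mmp2 and Mmp9 calls were lost too. Mmp9 rose by 0.52 ± 0.14 (SE, adjusted p 0.000472). The 2 untreated sets had nearly equal Mmp9 means of 0.34, and the difference was 1.05 between the treated sets. Its call was lost without AG untreated, AG treated or GHA501A treated cells, at adjusted p of 0.278, 0.482 and 0.475. The Mmp14 call was lost without the GHA501A treated set (difference -1.72, adjusted p 0.0568), whereas Timp3 and Mmp3 passed under every alternative run for this comparison.

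Timp2, Adam10 and Mmp10 were not called between the series. The differences were -0.22 ± 0.40 for Timp2, -0.48 ± 0.40 for Adam10 and -0.35 ± 0.14 (SE) for Mmp10, whose adjusted p of 0.0255 passed while its size did not. With the log2 of the mean TPM in place of the mean log2, Mmp10 and Adam10 were called lower in GHA501A, at -2.11 and -0.99, and Mmp9 lost its call.

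Because the series differed in the cells they held, keratinocyte-marker cells were compared separately, 66 and 62 in AG and 8 and 11 in GHA501A. Here 26.6% of genes were called, 16% higher and 10.7% lower in GHA501A, and 1 of the 8 genes was, Timp3. It fell by 3.70 (SE 0.78, adjusted p 2.58e-05), with medians of 48.8 and 39.8 TPM in AG and 1.59 and 0 TPM in GHA501A, untreated and treated. Without either AG set its adjusted p was 0.188 or 0.193, and 0 genes were called in total by limma in either case, with 2213 and 2189 at an unadjusted p under 0.05. Those fits also ran without the treatment block. The Timp3 difference was thus -3.70 among cells of 1 marker class and -4.14 over all cells. The Mmp14 difference was -1.69 ± 0.80 (SE, adjusted p 0.109) and the Timp2 difference -1.19 ± 0.81 (SE, adjusted p 0.310). Mmp2, Mmp3, Mmp9, Mmp10 and Adam10 differed by between -0.18 and 0.37, and their errors of up to 0.81 leave wide intervals.

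Within GHA501A, fibroblast-marker cells, 62 untreated and 56 treated, were set against the 19 keratinocyte-marker cells, with treatment as the block. In this comparison 9.49% of genes were called, 3.81% higher and 5.68% lower in fibroblast-marker cells, and 0 of the 8 were. Without the adjustment, 2177 of 11043 genes had a limma p under 0.05, and of the 8 Timp2 alone did. Timp2 medians were 151 and 213 TPM in fibroblast-marker cells and 91.1 and 42.98 TPM in keratinocyte-marker cells, untreated and treated. The difference was 1.15 ± 0.58 (SE, adjusted p 0.239). Mmp3 reached 2904 TPM in a fibroblast-marker cell and 29.8 TPM in the highest keratinocyte-marker cell, and was detected in 19.5% and 15.8% of them. On the log2 of the mean TPM, Mmp3 was called higher in fibroblast-marker cells by 4.79 (adjusted p 0.00772), and on the mean log2 scale the difference was 0.51 ± 0.34 (adjusted p 0.446). Mmp9 was detected in 17.8% of fibroblast-marker and 5.26% of keratinocyte-marker cells, a difference of 0.52 ± 0.29 (adjusted p 0.317). Timp3 exceeded 1 TPM in 26.3% and 36.8% of cells, a difference of -0.47 ± 0.49.

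**Figure D4:**
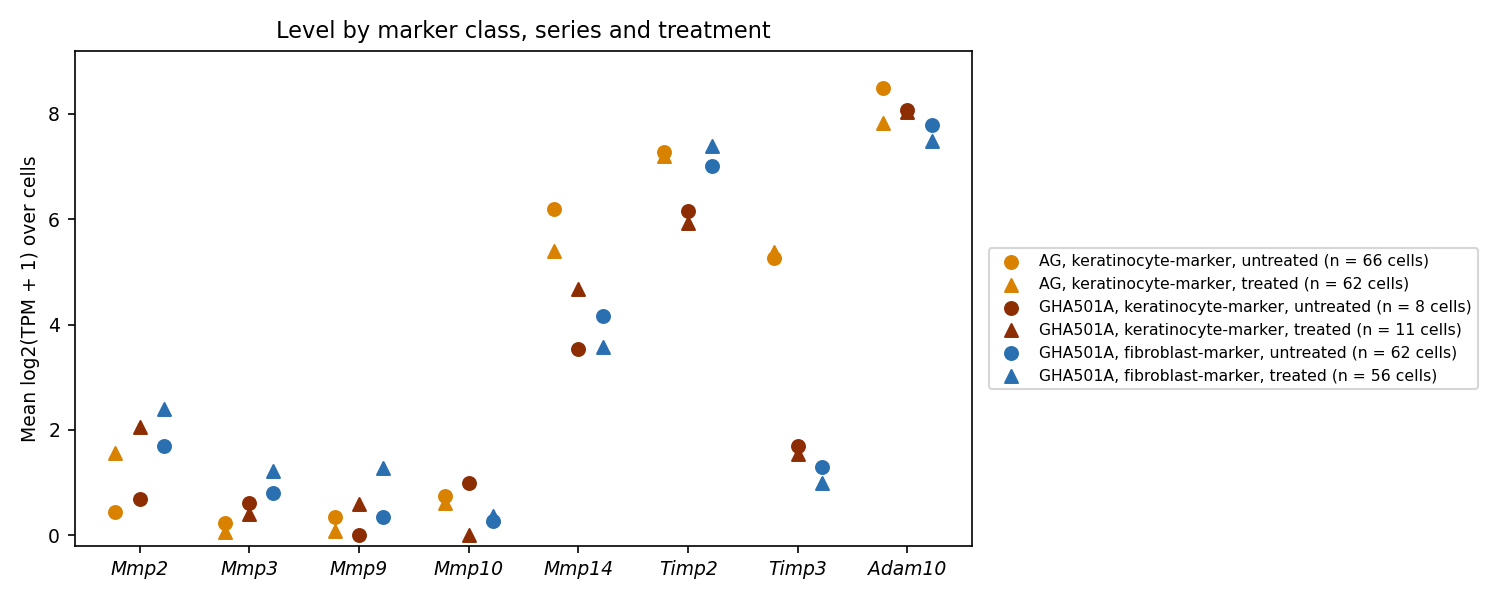
Mean log2(TPM + 1) of the 8 genes by series, marker class and treatment, with the number of cells behind each point in the legend. Circles are untreated and triangles treated sets. Timp3 stood at 5.26 and 5.37 in AG keratinocyte-marker cells and at or under 1.69 in both GHA501A classes, and Adam10 lay between 7.48 and 8.50 throughout.

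Other genes of the same system were followed in lists that took no account of direction, and their counts are set beside the background of 23.7% higher and 27.3% lower in GHA501A. With 4OHT, 0 genes of the 5 lists were called. Errors among keratinocyte-marker cells were often wide, so a gene not called there may still differ between the series. Of the other metalloproteinases and Timp4, 8 of 18 were tested, 1 was higher and 4 were lower in GHA501A. Mmp19 was higher by 3.57, detected in 2 of 130 AG and 72.1% of 140 GHA501A cells. It thus belongs to the genes listed at or near 0 in a whole series. It was also called within GHA501A, higher in fibroblast-marker cells by 3.75. Mmp11, Mmp15 and Mmp12 were lower in GHA501A by log2 differences of -2.32, -2.02 and -1.73, and stayed called among keratinocyte-marker cells.

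Of the ADAM and ADAMTS proteases, 5 of 19 tested were higher and 6 lower in GHA501A. Adamts2, which processes procollagen, was higher by 2.44, Adamts4, an aggrecanase, by 2.39 and the sheddase Adam17 by 1.12. Adamts2 was detected in 0 of 130 AG and 58.6% of 140 GHA501A cells. It too belongs to the genes listed at or near 0 in a whole series. Adam8, Adamts6 and Adamts16 differed by -2.29, -2.09 and -1.47. Among keratinocyte-marker cells Adamts6 (-2.85) and Adamts16 (-1.51) were called, and Adam8 (-0.09), Adam17 (0.89) and Adamts4 (0.46) were not. The Adam10 difference was -0.48 ± 0.40, and the difference between the 2 sheddases was not tested.

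Among activators and the plasminogen system, 4 of 15 were higher and 6 lower in GHA501A. Furin, the convertase that activates Mmp14, was higher by 4.03 and Bsg, an inducer of metalloproteinases, by 7.79. Both were detected in under 5% of AG cells, 6 and 4 of 130, and in all 140 GHA501A cells, and so belong to the genes listed at or near 0 in a whole series. Plat, the tissue plasminogen activator, was higher by 2.83. Tmprss11e, Plau (urokinase) and St14 (matriptase) were lower, with differences of -6.05, -2.76 and -2.60. Among keratinocyte-marker cells Bsg (7.65) and Furin (3.96) were called, and Plat (0.99), Tmprss11e (-0.62), Plau (-1.53) and St14 (-0.42) were not. The SE of the genes not called ran from 0.70 for Plat to 0.81 for Tmprss11e.

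Of the list of serpins, non-TIMP protease inhibitors and tetraspanins that escort Adam10, 5 of 15 were higher and 5 lower in GHA501A. Serpinf1 and Serpine2 were higher by 6.11 and 3.94, and the Adam10 partner Tspan5 by 0.98. The Adam10 partners Tspan15 and Tspan14 were lower at -5.55 and -3.39, as was the epithelial serpin Serpinb5 at -5.21. Tspan15 was detected in 130 of 130 AG and 41 of 140 GHA501A cells, while Adam10 itself was detected in every cell. Among keratinocyte-marker cells the Tspan15 difference was -5.59 and called, while those of Tspan14 (-0.56), Serpinb5 (0.04), Serpinf1 (0.79), Serpine2 (1.13) and Tspan5 (0.93) were not called.

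Of 26 substrate genes, 13 were higher and 11 lower in GHA501A. Some of those higher, Col1a1 among them, are also fibroblast markers that set the classes, so this count in part repeats the marker difference. Such genes were left out of the comparisons by marker class. Col1a1, Bgn and Vcan, components of the dermal matrix, were higher by 7.91, 5.68 and 5.58. Vcan was detected in 3 of 130 AG and 96.4% of 140 GHA501A cells. It too belongs to the genes listed at or near 0 in a whole series. Cdh1 (E-cadherin, cut by Adam10), Col17a1 and Lama3 of the epidermal attachment were lower at -6.12, -4.73 and -4.61. Among keratinocyte-marker cells Cdh1, Col17a1 and Lama3 differed between the series by -0.58, 0.97 and -0.38 and were not called, while Bgn and Vcan were higher in GHA501A by 1.06 and 2.28 and were called. Within GHA501A, Cdh1, Col17a1 and Lama3 were lower in fibroblast-marker than in keratinocyte-marker cells, at -6.53, -6.76 and -4.97.

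Likeness between genes was described by the Pearson correlation of log2(TPM + 1) over the cells of a set, averaged over the 4 sets, among 9454 genes. The cells of a set may share a capture run and differ in the number of genes detected, and the GHA501A sets mix marker classes. Mmp14 was most like Timp2 (mean r 0.35), then Itgb1 (0.35) and Flna (0.33), and its correlation with Timp2 was 0.49 and 0.56 in the AG sets and 0.16 and 0.19 in the GHA501A sets. Timp2 itself correlated with the number of genes detected in a cell, at 0.47 and 0.50 in the AG sets and -0.16 and 0.19 in the GHA501A sets, and the part of this in the former was not tested. Adam10 was most like Lamp2 (0.53), Cd164 (0.46) and Bzw1 (0.38), and Timp2 was most like Serinc3 (0.42), B4galt1 (0.40) and Nptn (0.38).

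Timp3 was most like Syn3, its antisense neighbour, at a mean r of 0.43. That value was 0.84 and 0.80 in the GHA501A sets and 0.07 and -0.01 in the AG sets, and the part of the shared exon bases in it was not tested. Fbln5 and Ajuba followed at 0.25 each. For Mmp2 the closest were C1qtnf6 (0.27), Sept6 (0.24) and Gas1 (0.23), and the first rested on AG untreated cells, at 0.71 against 0.02 to 0.24 in the other sets. Between members, Mmp2 reached 0.12 with Mmp14 and 0.14 with Timp2, which is weak in values this sparse. Mmp3, Mmp9 and Mmp10 were detected in too few cells to be described in this way.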

How the data were processed

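The authors sequenced single cells captured on the Fluidigm C1 chip (SMART-Seq v4, Nextera XT), aligned reads to GRCm38 with TopHat after FastQC and cutadapt, discarded reads mapped to several places, and counted with featureCounts. The deposited values are TPM for 14145 genes and 294 cells, and tool versions are not given in the sources used here. Of the columns, 16 matched no label and were not used, and 8 AG cells whose library name and treatment label disagreed (5 labelled treated, 3 untreated) entered as alternatives. Empty, doublet and non-viable captures were excluded by imaging per the labels, and no doublet caller was run. Because TPM keep no depth, how precise a low value is cannot be given.

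A gene entered the tests if over 5 cells held it above 1 TPM, and log2(TPM + 1) was averaged per set of cells, or per set and marker class with at least 5 cells. Tests on these means used R 4.3.3 and limma 3.58.1 (moderated test with a variance trend, two-sided, Benjamini-Hochberg adjustment over all genes). Calls needed an adjusted p under 0.05 and an absolute difference over 0.5. Series and treatment entered the fit of all 4 sets together. Keratinocyte-marker cells were compared with treatment, and marker classes with the set, as the block, leaving the marker genes out of the counts. The fits were tested on simulated data with noise set to the moderated error, where the fit of keratinocyte-marker cells missed nearly every changed gene unless the noise was made smaller. Other steps used scipy 1.17.1, pandas 2.3.3, numpy 2.4.6 and matplotlib 3.10.9 in Python 3.11.15. Gene positions came from GENCODE M21 and promoter windows from RefSeq.

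The members, lists and tests were chosen with earlier results of these data known. Genes named are the 10 members, the 3 genes higher and the 3 lower in GHA501A with the largest difference in each list, and the 3 genes most like each member with TPM over 1 in at least 20% of cells. Alternatives were a pseudocount of 0.1, no filter, detection in 10% of cells, the log2 of the mean TPM, no variance trend, no block, the 8 cells by label or by name, cells with at least 4000 genes, each set left out, a marker margin of 2 and Ward clusters. Comparisons between series with a set left out, over all cells or keratinocyte-marker cells, had no treatment block.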

Additional observations from a re-analysis of the deposited data

Results flagged for a closer look

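Treated minus untreated differences of mean log2(TPM + 1) had opposite signs in the AG and GHA501A series for 4 of the 8 genes, and in each case the difference between the series was not tested. For Mmp3 the values were -0.17 in AG and 0.27 in GHA501A. For Mmp9 they were -0.26 and 0.79, with detection in 4 of 66 untreated and 1 of 64 treated cells in AG and in 7 of 71 and 16 of 69 in GHA501A. For Timp2 they were -0.051 and 0.21, and for Timp3 0.20 and -0.26. With 1 set of cells for each series and treatment, the spread between repeated sets is not known.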

How the results depend on the processing

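Genes called with 4OHT numbered 5, and 0 with a pseudocount of 0.1, the log2 of the mean TPM, no variance trend, no block or the 8 cells by name, 12 without the filter and 1 with one marker class per series, an alternative chosen after seeing the data. Between series 6305 became 4162 on the log2 of the mean, and 4396 to 4524 with 1 set left out. Among keratinocyte-marker cells 3133 became 2010 on the log2 of the mean, 869 with no trend, and 0 to 4916 with 1 set left out. For marker classes 1048 became 420 with no filter, 585 on the log2 of the mean, 412 with no trend, 269 with no block, 689 with a margin of 2 and 453 with Ward clusters. The cause of these shifts was not tested.

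The sign of a member's difference turned for Mmp3 with 4OHT on the log2 of the mean (-0.45) and for Timp3 with 4OHT with the 8 cells by label (0.030) or without cells under 4000 genes (0.034). With Ward clusters Mmp14 turned to 0.094 and Timp3 to 0.14. With 1 set left out, among keratinocyte-marker cells, Mmp2 ran from -0.31 to 1.06, Adam10 from -0.44 to 0.23 and Mmp10 from -0.68 to 0.31. There Mmp14 was called without GHA501A treated cells (adjusted p 0.0184) and Mmp10 without GHA501A untreated cells (adjusted p 0.0121). Between series Mmp9 lost its call with no variance trend (adjusted p 0.237). Some settings gave no value for Mmp3, Mmp9 or Mmp10, which failed the filter there. Leaving out a set gave values without a test for treatment and marker classes.

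The labels give no replicate number that pairs cultures, and with no block for treatment the calls for Mmp2 (adjusted p 0.0784) and Mmp9 (0.0952) between series were lost. The 8 conflicting cells are AG cells and could not alter the marker classes within GHA501A.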

Other observations

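The 8 AG cells whose library name and treatment label disagree were left out of the comparisons above and entered only the alternatives that include them. Of the 5 labelled treated, 5 had Mmp14 over 1 TPM (3.81 to 446, median 341), 5 had Timp2 (82.6 to 910), 5 had Timp3 (11.4 to 287) and 5 had Adam10 (54.7 to 738), and 1 had Mmp2, at 18.1 TPM. Of the 3 labelled untreated, 3 had Mmp14 (8.73 to 227, median 34.6), 3 had Timp2 (201 to 324), 2 had Timp3 (up to 160.8) and 3 had Adam10 (145 to 547). Mmp3, Mmp9 and Mmp10 were listed at 0 in these 8 cells.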
